A study of Mus musculus and Homo sapiens with 15 samples.

Results

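The immunoglobulin heavy and kappa variable segments described here are the genes whose symbols begin with Ighv or Igkv and a number, and they were selected on their measured reads: a segment was kept where its raw counts summed to at least 10 over the 9 thymus libraries. This left 191 members of 345 such segments, 94 of 185 Ighv and 97 of 160 Igkv, in a table of 52340 genes. GENCODE vM21 annotates 184 of them as V genes and 7 as V pseudogenes. At the threshold, Igkv4-73 was kept with 10 reads and Ighv1-2 and Igkv3-3 with 11 each, while Igkv18-36, Igkv4-60 and Igkv12-40 were left out with 9 each. Levels set the membership, so the presence of reads in members is a description and not a finding.

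A V segment encodes most of the variable domain of an antibody chain. In a developing B cell, recombination joins 1 heavy V segment to D and J segments and 1 light chain V segment to a J segment, and the cell and its descendants then transcribe mainly those rearranged segments from promoters that carry an octamer element. A mixed B cell population therefore uses many segments, an expanded clone uses few, and T-lineage cells rearrange T-cell receptor genes in place of these. Plasma cells, which secrete antibody, hold far more immunoglobulin RNA per cell than resting B cells.

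RNA was sequenced from tumour tissue of the thymus of W/W mice, which are homozygous for p53 R282W and had T-lymphomas, on day 150 after birth. Of these libraries, 3 were from mice given water, 3 from mice given ATO (arsenic trioxide) whose tumours progressed, and 3 from mice given ATO whose tumours regressed. The groups under ATO were divided by outcome, so treatment and outcome cannot be told apart against water. Grafted tumours (a CDX model, whose cell line the labels do not name) in C57 mice of genotype WT were sampled after PBS (phosphate-buffered saline, 2 libraries) or ATO (2 libraries), without an age given. The series was designed to compare T-lymphoma transcriptomes before and after ATO, and nothing in the labels says that a sort for B cells was made.

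Library totals were 12800367 to 17550594 reads in the W/W table and 12922147 to 15637644 in the C57 table. Water replicate 2 stood apart in having the fewest detected genes (21372 against 24374 to 27114). Its normalization factor was 0.747, near the 0.794 of progressing replicate 2, and the other W/W libraries had 1.03 to 1.16. Mitochondrial genes took 2.08% to 8.83% of the reads of the W/W libraries. The 9 thymocyte markers summed to 952 to 1242 CPM (counts scaled to the TMM-adjusted library size, as edgeR gives them) in water, 2693 to 3015 in progressing and 3870 to 7301 in regressing libraries, so the water libraries were the lowest in the markers of the labelled tissue.

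The coding sequences of the 3 segments that dominated water replicate 2 are shown because the results on diversity turn on them. Each line ends at the 3′ end of the GENCODE vM21 transcript, runs 5′ to 3′ over the last 240 bases, and has in capitals the codon of the conserved cysteine that precedes the junction with D or J.
Igkv19-93: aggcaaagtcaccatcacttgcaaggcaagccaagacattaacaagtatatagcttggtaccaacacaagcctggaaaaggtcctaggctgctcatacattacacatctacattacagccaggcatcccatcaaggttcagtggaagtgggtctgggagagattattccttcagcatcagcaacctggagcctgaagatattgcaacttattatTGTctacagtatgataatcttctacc
Igkv4-91: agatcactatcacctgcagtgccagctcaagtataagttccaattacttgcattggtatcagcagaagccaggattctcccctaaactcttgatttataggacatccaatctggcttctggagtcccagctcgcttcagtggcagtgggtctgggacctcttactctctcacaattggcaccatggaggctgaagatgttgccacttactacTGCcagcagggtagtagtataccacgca
Ighv12-3: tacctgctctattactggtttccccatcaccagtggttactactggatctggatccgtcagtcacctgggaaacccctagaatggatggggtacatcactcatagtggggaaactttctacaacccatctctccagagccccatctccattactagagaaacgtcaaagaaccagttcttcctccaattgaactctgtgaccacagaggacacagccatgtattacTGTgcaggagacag

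On GRCm38, Igkv19-93 (ENSMUSG00000098814) lies on the minus strand of chromosome 6 from 68736297 to 68736780, Igkv4-91 (ENSMUSG00000076532) on the same strand and chromosome from 68768555 to 68769103, and Ighv12-3 (ENSMUSG00000076676) on the minus strand of chromosome 12 from 114366521 to 114366954. Over the 270 bases that end with the cysteine codon, Igkv19-93 and Igkv4-91 were 65.2% identical, so they are not near copies of each other. Their nearest relatives among the V segments were Igkv10-94 at 80.0% for Igkv19-93 and Igkv4-60 at 90.0% for Igkv4-91, and Ighv3-2 at 79.6% for Ighv12-3.

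Other members are much closer to each other. Of the 184 members with such a window, 107 had a relative at least 95% identical, 2 had one at least 99% identical (Ighv1-62-2 and Ighv1-72), and 15 had none above 85%. The last 60 bases of some leading heavy segments show the range: Ighv1-18 and Ighv1-26 are 97.4% identical over the window, and Ighv1-9 is no closer than 89.6% to any segment.
Ighv1-18: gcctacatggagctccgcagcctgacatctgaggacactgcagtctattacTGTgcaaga
Ighv1-26: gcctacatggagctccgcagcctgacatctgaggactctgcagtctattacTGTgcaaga
Ighv1-9: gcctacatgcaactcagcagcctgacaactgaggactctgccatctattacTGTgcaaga

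Reads of such close relatives can be assigned to the wrong member or left out, and how the authors counted reads with several matches is not given in the sources used here. Values of single members with close relatives are therefore uncertain, and the sums over a locus less so.

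V reads were abundant in the water and regressing libraries and nearly absent from the progressing ones. The Igkv members together had 13711, 35910 and 4472 reads in water replicates 1, 2 and 3, 109, 155 and 31 in the progressing replicates, and 14290, 9043 and 18667 in the regressing replicates. The Ighv members had 7932, 6484 and 2402 reads in water, 60, 90 and 34 in progressing and 7829, 6148 and 11744 in regressing libraries. In both loci the lowest water or regressing library lay far above the highest progressing library, and the water and regressing groups overlapped.

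**Figure D1:**
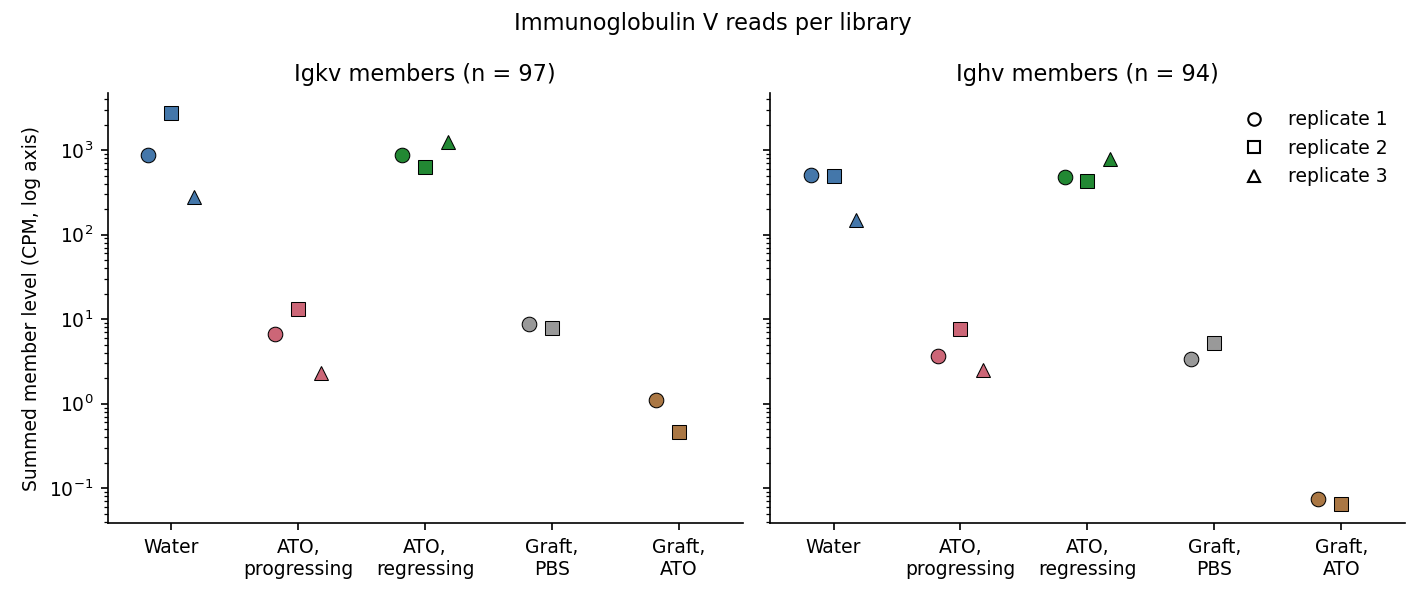
Summed level of the Igkv (left) and Ighv (right) members in each library, in CPM on a log axis, with 1 point per library and the replicate number as the marker shape. The progressing points, from 2.28 to 13.1 CPM for Igkv, lie below every water and regressing point, and the grafts given ATO lie below the grafts given PBS.

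As summed levels, the Igkv members had 1301 ± 1285 CPM (SD, n = 3) in water, 7.37 ± 5.44 in progressing and 918 ± 298 in regressing libraries. The mean log2 CPM differed by -7.22 between progressing and water and by 7.24 between regressing and progressing libraries, each with an exact two-sided permutation p = 0.1, the smallest that 3 against 3 allows. The Ighv members had 385 ± 205, 4.60 ± 2.67 and 564 ± 184 CPM, with differences in mean log2 CPM of -6.34 and 7.05 (both exact permutation p = 0.1). Between regressing and water libraries the differences were 0.02 for Igkv (exact permutation p = 1) and 0.71 for Ighv (exact permutation p = 0.6), with the groups overlapping in both loci. The Ighv difference was 0.12 without water replicate 3 and 2.28 without the most abundant segment of each library, where the groups still overlapped. In these bulk samples, fewer B-lineage cells and less immunoglobulin RNA per cell cannot be told apart. The labels do not say whether the 3 samples of a group were separate mice beyond their numbering, so p-values measure the spread between these samples.

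Of the 191 members, 145 passed the filter on low counts, 73 Igkv and 72 Ighv, and were tested with edgeR's quasi-likelihood test among 18119 genes. A member could pass the filter through the groups where it is high, so the shares below describe the tested members and not the whole set. With only the compared groups fitted, 19 members passed for water and progressing libraries and 127 for regressing and progressing libraries. Most of the 145 thus passed only with the regressing libraries in the fit. A higher level there than in progressing libraries was in part set by the filter. In progressing against water libraries, 64 members were lower at an edgeR adjusted p under 0.05 (40 Igkv and 24 Ighv) and 0 higher, where 7.13% of all tested genes were lower and 4.77% higher. The median log2 fold change of the tested members was -6.02, or -3.49 with members at the floor set to their bound, against -0.04 over all tested genes. The floor is 3 reads in every library of a group, and 157 of the 191 members had no more than that in the progressing libraries, 96 of them with 0 in each.

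Leaving out a library moved this count, given here with the share of all genes called in either direction in brackets. Without water replicates 1, 2 and 3 it was 24 of 154 tested (7.08%), 100 of 161 (13.3%) and 56 of 162 (7.16%). Without progressing replicates 1, 2 and 3 it was 19 of 162 (8.99%), 23 of 162 (9.60%) and 8. Without progressing replicate 3 those 8 of 162 tested members stood beside 4.78% of all genes called in either direction, so the share of members was near the background there. With limma-voom 8 of 145 members were called beside 9.09% of all genes, a share below the background. When only the compared groups were fitted, 19 members passed the filter and 10 were called, beside 5.32% of all genes. A replicate block called 27 of 145 members (7.75% of all genes), DESeq2 102 of 129 (20.9%), and the fit without the filter 138 of 191 (10.4%). Members with more reads in progressing than in water libraries did not pass the main filter in the examples of Ighv1-37 (3, 0 and 0 reads in water, 6, 0 and 0 in progressing) and Ighv8-2 (6, 0 and 1 in water, 1, 0 and 7 in progressing), which led a progressing library each.

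The largest falls by fitted log2 fold change in progressing against water were those of the segments printed above. Igkv19-93 had 853, 21409 and 1220 reads in water and 1, 2 and 1 in progressing libraries, with no overlap between groups, and was at least 2678-fold lower (log2 fold change -12.45, SE 1.78, edgeR adjusted p = 0.00336). Water replicate 2 held most of the water reads of Igkv19-93, and in its absence the fitted value was -9.24. Leaving out any library kept that call (6 of 6 fits), and DESeq2 and limma-voom lost it. Igkv4-91 had 33, 13706 and 26 reads in water and 0, 4 and 0 in progressing libraries (log2 fold change -11.67, SE 2.76, edgeR adjusted p = 0.0237). Without water replicate 2 its log2 fold change was -4.08, and its call was lost without each of the progressing replicates in turn.

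Ighv12-3 had 286, 6256 and 0 reads in water and 0 in each progressing library. Its fall (log2 fold change -14.24, SE 3.84, edgeR adjusted p = 0.0459) came to at least 753-fold on the group means, yet water replicate 3 and the progressing libraries were all at 0, so the groups overlapped. Its call held without water replicate 3 and was lost when any other library was left out, and the fitted value for Ighv12-3 was -10.09 in the absence of water replicate 2.

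In regressing against progressing libraries, 106 members were higher (58 Igkv and 48 Ighv) and 0 lower at an edgeR adjusted p under 0.05, where 6.45% of all tested genes were higher and 6.18% lower. The median log2 fold change of the tested members was 7.46, or 4.97 at the bound, against -0.07 over all tested genes. The filter in part set this direction, so the median is a description and not support for a rise. The count fell when a library was left out, and the share of all genes called, given in brackets, moved too. Without progressing replicates 1, 2 and 3 it was 54 of 162 tested members (10.5%), 37 of 162 (7.12%) and 18 of 162 (2.80%). Without regressing replicates 1, 2 and 3 it was 18 of 152 (0.92%), 29 of 156 (1.62%) and 30 of 152 (2.86%). With a replicate block it was 91 of 145 (8.81%) and with limma-voom 99 of 145 (11.0%). DESeq2 called 122 of 129 (23.0%) and the fit without the filter 165 of 191 (10.5%). With only the compared groups fitted, 124 of 127 members were called (19.4%). This comparison shares the progressing libraries with the one against water.

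The largest rises by fitted value were those of Igkv3-2, Ighv1-15 and Ighv5-16, each at 0 reads in all 3 progressing libraries. Igkv3-2 had 326, 404 and 170 reads in the regressing libraries, a rise of at least 90.9-fold (log2 fold change 11.19, SE 2.08, edgeR adjusted p = 0.0189). Its reads were spread over the 3 libraries, and 348, 31 and 7 stood in water. The call for Igkv3-2 was lost without progressing replicate 3 and without regressing replicate 1 or 2.

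Ighv1-15 had 38, 49 and 749 reads in the regressing libraries, a rise of at least 83.8-fold (log2 fold change 11.08, SE 2.59, edgeR adjusted p = 0.0316). Most of its reads came from regressing replicate 3, and leaving out any of the 6 libraries ended the call, with a fitted value of 8.47 for Ighv1-15 in the absence of regressing replicate 3. Ighv5-16 had 246, 50 and 420 reads, a rise of at least 70.5-fold (log2 fold change 10.83, SE 1.85, edgeR adjusted p = 0.0155), and kept its call in 5 of those 6 fits. Without regressing replicate 1 the edgeR adjusted p of Ighv5-16 was 0.0506.

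Between regressing and water libraries the summed levels overlapped, and 1 member passed the test. Here 0 members were higher and 1 lower at an edgeR adjusted p under 0.05, where 3.13% of all tested genes were higher and 4.57% lower. An unadjusted edgeR p under 0.05 was found for 20 of the 145 tested members, beside 5074 of the 18119 tested genes, a larger share. The fitted log2 fold change was positive for 125 members and negative for 20, with a median of 1.41 against -0.11 over all genes. Members could pass the filter through the regressing libraries, so no rise there is read from this split. The member called was Igkv19-93, with 161, 170 and 474 reads in regressing libraries against 853, 21409 and 1220 in water (log2 fold change -5.05, SE 1.22, edgeR adjusted p = 0.0353).

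That call was lost without water replicate 2, where the fitted value for Igkv19-93 was -1.79, and without each regressing replicate in turn. The number of members called was 28 of 154 tested without water replicate 1, beside 5.60% of all genes called in either direction. It was 0 of 161 without water replicate 2, beside 3.91% of all genes. Without regressing replicates 1, 2 and 3 it was 0 of 152, 0 of 156 and 0 of 152, beside 0.45%, 0.31% and 2.85%. The shares over all genes were also low, so these counts of 0 are not read as a result about the members. Without water replicate 3 the number called was 4 of 162, beside 6.31% of all genes. Of those 28, 26 were higher in regressing libraries, opposite to Igkv19-93, while all 4 without water replicate 3 were lower. The fit without the filter called 34 of 191 members, 30 of them higher, beside 7.81% of all genes. DESeq2 called 10 of 129 beside 18.7% of all genes and limma-voom 10 of 145 beside 7.93%, all as higher. The member shares with DESeq2 and limma-voom were below the background, so they are not read as a result about the members. A replicate block called 1 of 145 members beside 5.28% of all genes. A fit of only the compared groups called 1 of 144 beside 10.1%, and both calls were as higher. Igkv4-91 had 88, 39 and 84 reads in the regressing libraries, above water replicates 1 and 3, and its log2 fold change changed sign without water replicate 2, from -6.25 to 1.37 (edgeR adjusted p = 0.0818 and 0.449). Ighv12-3 had 48, 0 and 5 reads there (log2 fold change -7.20, edgeR adjusted p = 0.0999).

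The water libraries differed widely from each other in how their reads were divided among segments. In water replicate 2, Igkv19-93 held 59.6% of the 35910 Igkv reads (95% Clopper-Pearson interval 59.1% to 60.1%, counting error only), and with Igkv4-91 it held 97.8%. Igkv12-89 came next with 99 reads. Ighv12-3 held 96.5% of the 6484 Ighv reads (95% interval 96.0% to 96.9%), ahead of Ighv6-3 with 55 reads and Ighv6-6 with 25. Per kilobase of the deposited gene size the shares of Igkv19-93, Igkv4-91 and Ighv12-3 were 59.3%, 38.5% and 96.5%. The pairing of Ighv12-3 with Igkv4-91 is known from antibodies of B-1a cells that bind phosphatidylcholine. Bulk reads do not show which chains shared a cell, so no pairing was measured.

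**Figure D2:**
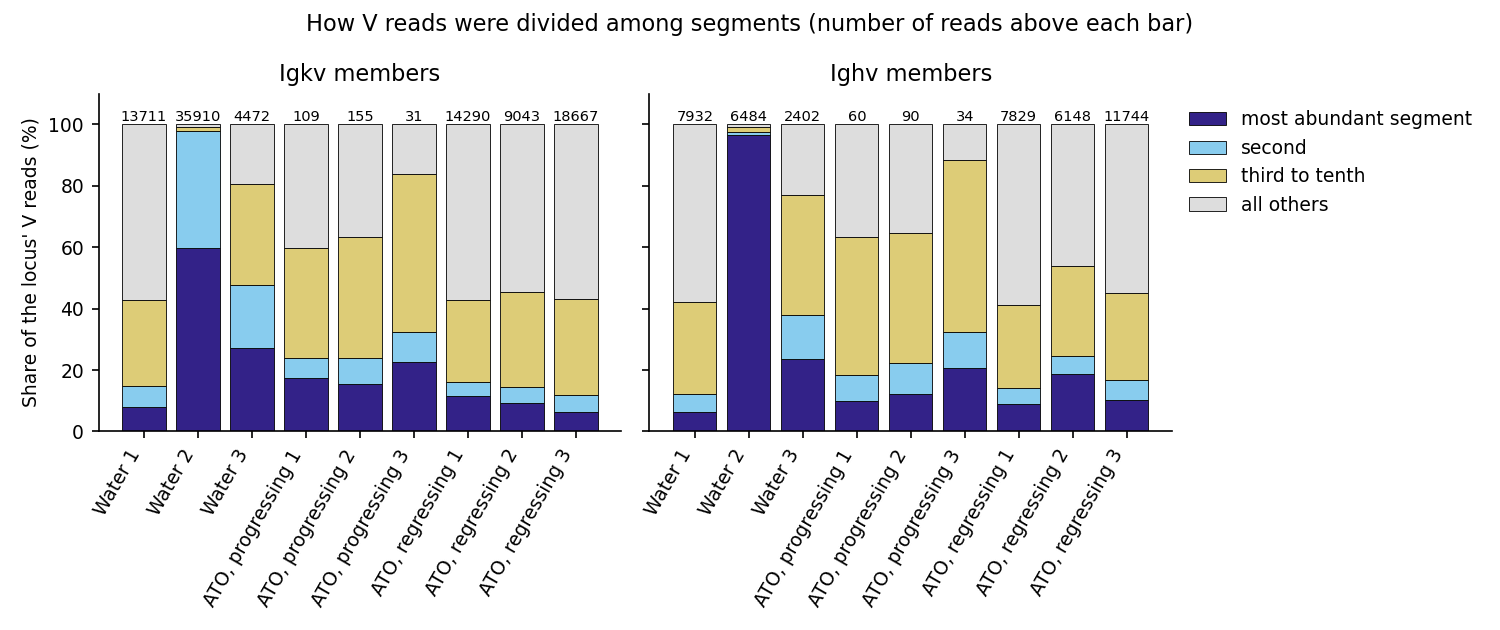
Share of the Igkv (left) and Ighv (right) reads taken in each W/W library by the most abundant segment, the second, the next 8 and all others, in percent, with the number of reads above each bar. In water replicate 2 the first segments fill nearly the whole bar, while in water replicate 1 and the regressing libraries the leading 10 hold 41.2% to 53.7%.

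Water replicate 3 was also uneven, with other segments. Igkv19-93 again led with 1220 of 4472 Igkv reads (27.3%), followed by Igkv17-121 with 917 and Igkv4-68 with 570. Ighv1-9 led the Ighv reads with 567 of 2402 (23.6%), followed by Ighv1-82 with 340 and Ighv1-39 with 301. Ighv12-3 was at 0, so the 2 water libraries led by Igkv19-93 did not share a leading heavy segment.

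Water replicate 1 and the regressing libraries had no segment of that weight. In water replicate 1 the leaders were Igkv17-121 with 1094 reads (8.0% of Igkv reads), Igkv10-96 with 918 and Igkv19-93 with 853, and Ighv1-26 with 497 (6.3% of Ighv reads), Ighv1-80 with 467 and Ighv1-64 with 426. In the regressing libraries the leading Igkv segments were Igkv10-96 with 11.4% in replicate 1, Igkv14-111 with 9.3% in replicate 2 and Igkv3-4 with 6.2% in replicate 3. The leading Ighv segments there were Ighv1-26 with 8.9%, Ighv1-18 with 18.8% and Ighv3-6 with 10.3%. Each regressing library thus had its own leader in each locus.

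The progressing libraries had too few reads to name a dominant segment. Igkv17-121 led replicate 1 with 19 of 109 Igkv reads, Igkv4-68 led replicate 2 with 24 of 155 and Igkv6-15 led replicate 3 with 7 of 31, the last share having a 95% interval of 9.6% to 41.1%. For the heavy chain, Ighv1-37 had 6 of 60 reads, Ighv1-82 11 of 90 and Ighv8-2 7 of 34.

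Some segments led repeatedly. Igkv10-96 and Igkv1-117 were among the 10 most abundant Igkv segments in 7 of the 9 libraries, all 3 regressing ones among them, and so were Ighv1-26 and Ighv3-6 among Ighv segments. These 7 include progressing libraries, where ranks rest on few reads: Igkv1-117 had 4, 8 and 2 there. In progressing replicate 1 Igkv10-96 and Igkv1-117 had 4 reads each, as had Igkv6-17, which was left out by the order of symbols. Igkv10-96 had 918, 22 and 98 reads in water, 4, 13 and 0 in progressing and 1627, 382 and 1027 in regressing libraries. Ighv1-26 had 497, 10 and 157 reads in water, 5, 1 and 0 in progressing and 697, 324 and 652 in regressing libraries. Igkv19-93 was in the leading 10 in the 3 water libraries and in no other.

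The effective number of segments, the number of equally used segments that would give the same chance of drawing the same segment in a pair of reads, was 33.7, 2.00 and 7.09 for Igkv in water, 19.6, 18.9 and 14.5 in the progressing and 31.8, 33.0 and 36.1 in the regressing libraries. For Ighv it was 38.3, 1.07 and 9.32 in water, 26.4, 21.5 and 12.5 in progressing and 36.1, 18.1 and 31.2 in regressing libraries. Water replicate 1 had the highest Ighv value and the second highest Igkv value of the 9 libraries, and the other water libraries lay below all libraries of both ATO groups.

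Regressing libraries had 33.6 ± 2.26 effective Igkv segments (SD, n = 3), against 17.7 ± 2.74 in progressing libraries, a difference of 15.9 with no overlap (exact permutation p = 0.1, the smallest possible). Against the 14.3 ± 17.0 of the water libraries the difference was 19.4 (exact permutation p = 0.3). For Ighv, 28.5 ± 9.29 in regressing libraries stood against 20.1 ± 7.08 in progressing (difference 8.34, exact permutation p = 0.3) and 16.2 ± 19.6 in water (difference 12.2, exact permutation p = 0.4). Single libraries moved these values. Against progressing, the Ighv difference was 4.50 without progressing replicate 3, 4.51 without regressing replicate 1 and 13.5 without regressing replicate 2. Against water, it was 4.67 without water replicate 2 and 23.3, with no overlap, without water replicate 1. The Igkv difference against water was 29.1, with no overlap, without water replicate 1. Progressing and water differed by 3.43 for Igkv (exact permutation p = 0.9) and 3.91 for Ighv (exact permutation p = 0.8), and both differences turned negative with the Shannon index, to -1.92 and -5.82, and without water replicate 2, to -2.70 and -3.67.

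Depth differed by orders of magnitude between these libraries, so segments were also counted in draws of equal size, 31 reads for Igkv and 34 for Ighv. A draw of 31 Igkv reads was expected to hold 21.6, 2.67 and 12.4 segments in water, 18.6, 17.8 and 15.0 in progressing and 21.8, 21.6 and 21.8 in regressing libraries. A draw of 34 Ighv reads was expected to hold 23.9, 2.14 and 14.6, then 19.9, 19.2 and 14.0, then 23.6, 20.6 and 22.9 segments. At equal size the progressing libraries lay below the regressing ones for both loci. For Ighv the nearest values were 19.9 and 20.6, and the effective numbers of these groups had overlapped.

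Presence was counted without equalizing depth. Of the 191 members, 127 had at least 10 reads in every regressing library, against 19 in every water library and 0 in every progressing library. At least 1 read in every library of the group was found for 163 members in regressing, 76 in water and 13 in progressing libraries. Water replicate 1 held reads of 190 members, and water replicate 2 of 93 despite having the most V reads.

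The share of reads that a pair of libraries has in common, summed over segments as the smaller of the shares in each, was 62.1% to 67.4% for Igkv and 59.0% to 62.4% for Ighv between regressing libraries. Water replicate 1 had 63.1% to 67.2% of Igkv reads and 57.9% to 62.5% of Ighv reads in common with them, as much as they had with each other. Water replicate 2 had 29.6% of Igkv reads in common with water replicate 3 and at most 8.53% with any other library, and at most 7.0% of Ighv reads with any. Pairs with a progressing library rest on as few as 31 Igkv reads, and no order was read from them.

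By family, Ighv1, the largest with 46 members, held 57.5% of Ighv reads in water replicate 1, 1.16% in replicate 2 and 80.3% in replicate 3, and 44.3%, 59.8% and 47.2% in the regressing libraries. Igkv4, with 27 members, held 15.6%, 38.3% and 20.2% of Igkv reads in water and 23.0%, 15.0% and 15.3% in regressing libraries. The share of Igkv4 in water replicate 2 was almost all Igkv4-91.

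The neighbours of the leading kappa segments in water replicate 2 are given as a description. Igkv4-92 is the only segment between the starts of Igkv19-93 and Igkv4-91, and it had 0 reads in that library. At higher coordinates than Igkv4-91, Igkv12-89 had 99 reads, Igkv1-88 had 30 and the pseudogene Igkv13-87 had 51. At lower coordinates than Igkv19-93, Igkv2-93-1 had 0, Igkv10-94 had 1 and Igkv10-95 had 37. Segments farther away also had reads: Igkv2-109 had 88 reads and Igkv14-111 had 59. For Igkv13-87 these 51 reads were all but 1 of its reads in the 9 libraries, the other standing in water replicate 1. These neighbours were named after their values were seen, and Igkv4-90, which also neighbours Igkv4-91, had 1 read.

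**Figure D3:**
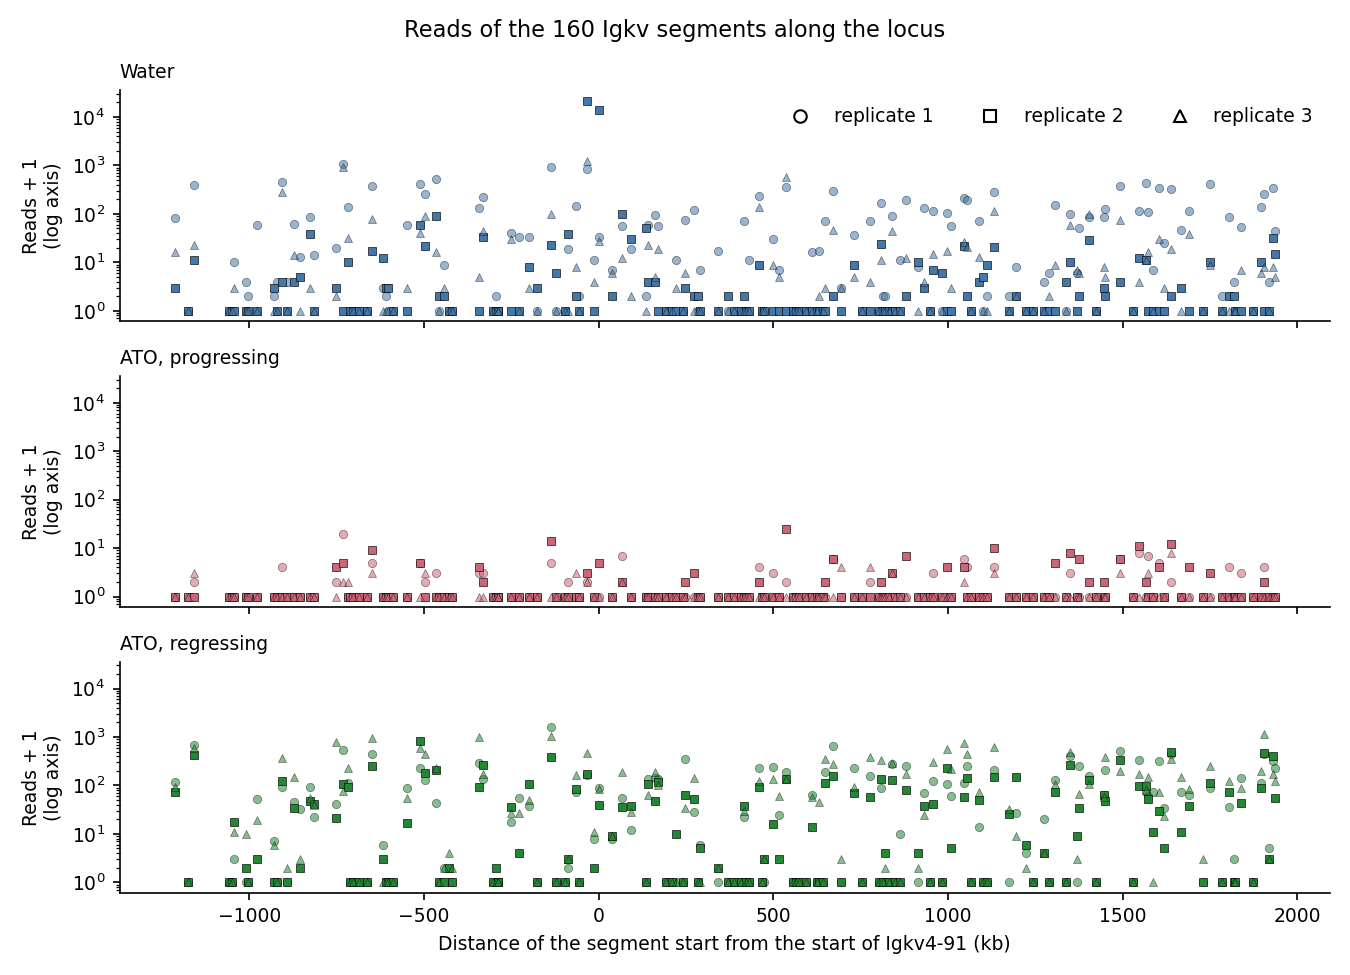
Reads plus 1, on a log axis, of the 160 Igkv segments against the distance of each from the start of Igkv4-91 in kilobases, with 1 panel per group and the replicate number as the marker shape. In water replicate 2 (squares, top) Igkv19-93 and Igkv4-91 stand at 21409 and 13706 reads above a thin remainder, while the regressing libraries have reads along the whole locus.

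The constant region genes, which every rearranged V segment is spliced to, moved with the V reads. Of the 12 constant genes listed, 10 were lower in progressing than in water, 11 were higher in regressing than in progressing and 0 differed between regressing and water libraries (edgeR adjusted p under 0.05). Igkc, the kappa constant gene, had 1900 ± 1920 CPM in water, 14.4 ± 10.8 in progressing and 1560 ± 247 in regressing libraries (log2 fold change of progressing against water -7.05, SE 1.01, edgeR adjusted p = 0.00336). Igkv member reads per Igkc read were 0.663, 0.679 and 0.844 in water, 0.577, 0.498 and 0.443 in progressing and 0.540, 0.497 and 0.699 in regressing libraries. Every progressing library lay below every water library in this ratio, and the regressing libraries overlapped both. The ratios varied far less than the levels.

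The heavy chain ratio was lower in the progressing libraries. Ighv member reads per read of all heavy constant genes were 0.149, 0.118 and 0.143 in water, 0.0219, 0.0917 and 0.0209 in progressing and 0.140, 0.144 and 0.230 in regressing libraries, so water and regressing overlapped and every progressing library lay below both. Ighm, the constant gene of IgM, had 2282 ± 1671 CPM in water, 108 ± 47.2 in progressing and 1363 ± 228 in regressing libraries (log2 fold change of progressing against water -4.40, SE 0.62, edgeR adjusted p = 0.00323). Per Ighm read alone the values were 0.282, 0.120 and 0.166 in water, 0.0240, 0.128 and 0.0227 in progressing and 0.310, 0.390 and 0.548 in regressing libraries, where Ighm made up a smaller share of the constant reads. In progressing replicates 1 and 3 there were 2496 and 1500 Ighm reads beside 60 and 34 Ighv reads. Unrearranged Ighm transcripts that carry no V segment are known in lymphoid cells, and whether these reads were such transcripts was not tested.

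**Figure D4:**
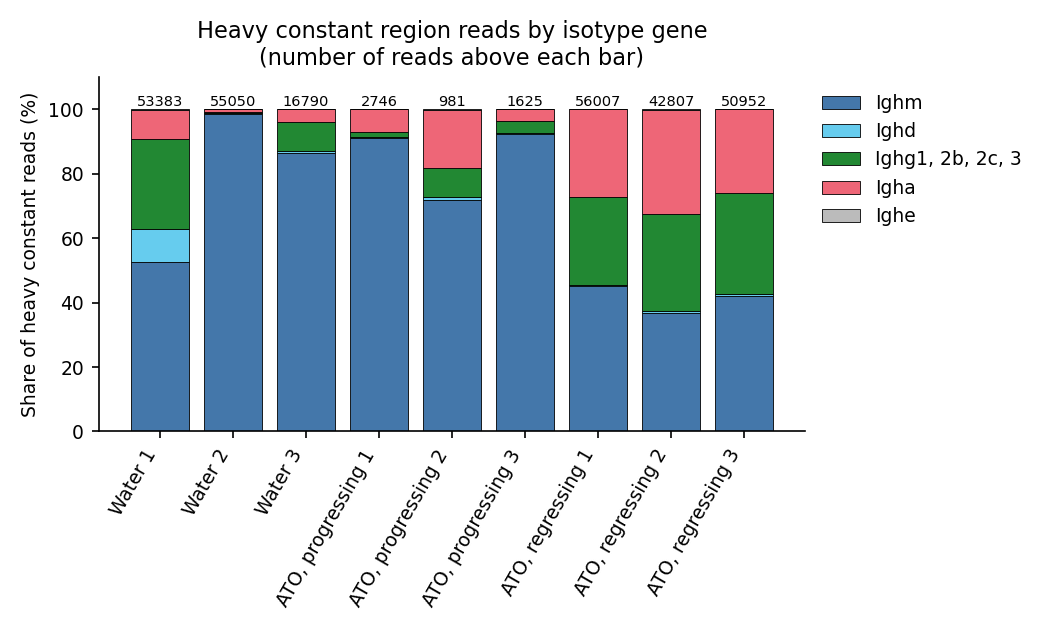
Share of the heavy constant region reads of each W/W library by constant gene, in percent, with the number of reads above each bar. Ighm takes 98.4% in water replicate 2, and Igha and the Ighg genes together take more than Ighm in each regressing library.

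Isotype shares also differed between the libraries. Ighm held 98.4% of the heavy constant reads in water replicate 2, the library led by Ighv12-3, 86.3% in replicate 3 and 52.7% in replicate 1. In the regressing libraries Ighm held 45.1%, 36.9% and 42.0%, the Ighg genes (IgG) 27.4% to 31.4%, and Igha, the constant gene of IgA, 26.1% to 32.0%. Igha had 928 ± 47.5 CPM in regressing libraries against 129 ± 160 in water, without overlap (log2 fold change 2.84, SE 0.81, edgeR adjusted p = 0.0572), and 10.3 ± 5.42 in progressing libraries. Ighd, expressed with Ighm by naive B cells, held 10.1% in water replicate 1 and at most 0.733% in each other W/W library.

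Markers of B cells and plasma cells are given beside the V reads. The 18 B cell markers summed to 2456, 4834 and 443 CPM in water, 30.7, 105 and 121 in progressing and 314, 217 and 328 in regressing libraries, with 18 of 18 having reads in every library except progressing replicate 1, which had 16. In regressing against water libraries 4 of the 18 were lower at an edgeR adjusted p under 0.05 (Ms4a1, Blnk, Spib and Tnfrsf13c) and 0 higher, with a median log2 fold change of -3.06. In progressing against water 15 of 18 were lower, and in regressing against progressing 6 of 18 were higher, with a median of 2.75. Ms4a1, the gene of the surface protein CD20, had 3346, 11228 and 159 reads in water, 0, 7 and 2 in progressing and 184, 184 and 251 in regressing libraries.

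The 10 plasma cell markers summed to 677, 1032 and 403 CPM in water, 168, 269 and 287 in progressing and 853, 723 and 994 in regressing libraries. In regressing against water libraries 0 of the 10 passed the test in either direction. Their fold changes were 5 positive and 5 negative there, with a median of -0.53 on the log2 scale. In progressing against water 6 were lower, and in regressing against progressing 4 were higher and 1, Sdc1, was lower. Jchain, which joins IgM and IgA into polymers, had 224 ± 114 CPM in water, 5.17 ± 2.96 in progressing and 524 ± 100 in regressing libraries (log2 fold change of regressing against progressing 6.66, SE 0.66, edgeR adjusted p = 0.00298). With 8674, 5925 and 9373 reads it led the 10 markers in each regressing library, so the sums there rest largely on Jchain. Xbp1, a transcription factor of secretory cells, had 122 ± 6.88, 54.1 ± 9.66 and 180 ± 13.1 CPM (log2 fold change of regressing against progressing 1.73, SE 0.26, edgeR adjusted p = 0.00924). Derl3 and Mzb1, genes of the endoplasmic reticulum in antibody-secreting cells, also rose in regressing against progressing libraries, by 4.17 and 4.84 on the log2 scale (edgeR adjusted p = 0.011 and 0.0299).

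Per unit of B cell marker signal, V reads were highest in the regressing libraries. The summed CPM of all members divided by that of the B cell markers was 0.568, 0.670 and 0.958 in water, 0.339, 0.197 and 0.0395 in progressing and 4.36, 4.95 and 6.12 in regressing libraries, with no overlap between the regressing and any other W/W group. The part of cell composition in this ratio was not tested.

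**Figure D5:**
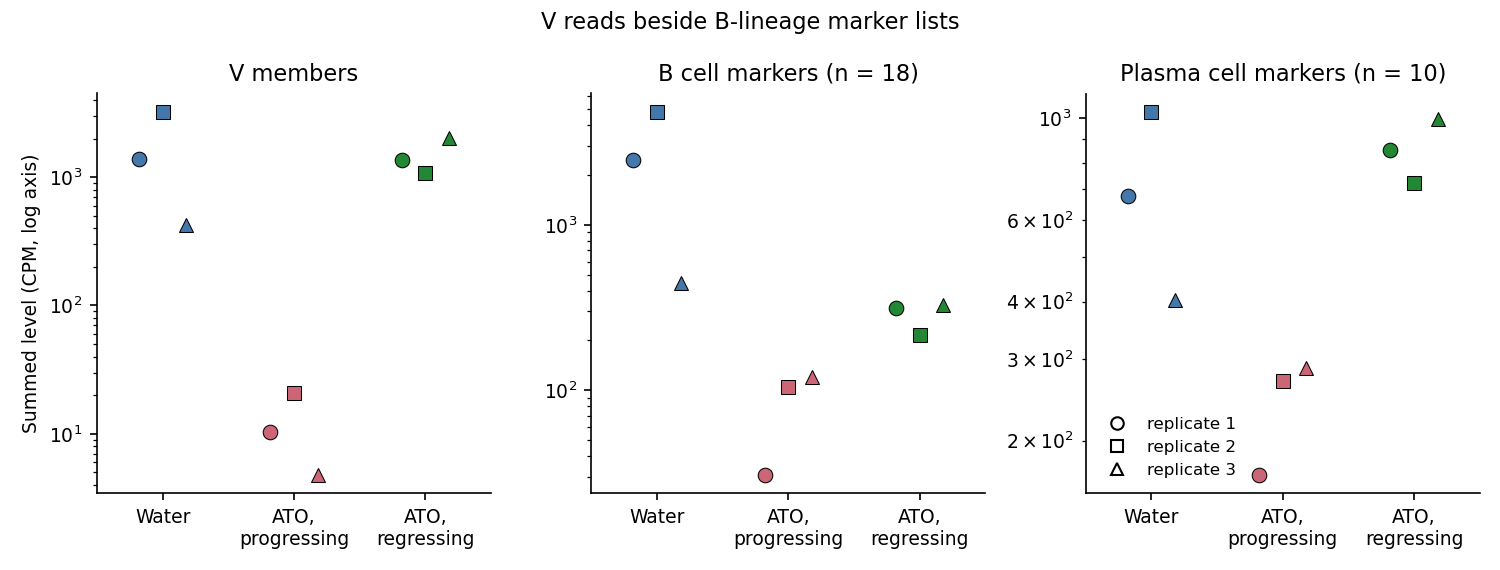
Summed level in CPM, on log axes that differ between panels, of the 191 V members (left), the 18 B cell markers (middle) and the 10 plasma cell markers (right) in each W/W library, with 1 point per library. V members in regressing libraries lie in the range of the water libraries. The B cell markers there lie below the water range, and the plasma cell markers lie within it.

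Among the factors of the octamer element of V promoters, Pou2af1, a coactivator of B cells, had 163 ± 124 CPM in water, 4.98 ± 4.67 in progressing and 27.7 ± 4.38 in regressing libraries. Pou2af1 fell in progressing against water (log2 fold change -5.03, SE 0.78, edgeR adjusted p = 0.00487) and in regressing against water (log2 fold change -2.55, SE 0.69, edgeR adjusted p = 0.0494), and was higher in regressing than in progressing libraries (log2 fold change 2.47, edgeR adjusted p = 0.0444). Pou2f2, the octamer factor enriched in B cells, fell in progressing against water (log2 fold change -4.77, SE 0.79, edgeR adjusted p = 0.0062). Pou2f1, the ubiquitous octamer factor, was higher there (log2 fold change 1.34, SE 0.32, edgeR adjusted p = 0.025).

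Other lists were counted for the cells these samples could hold. The V(D)J recombinase genes, all 3 of 3, were higher in both ATO groups than in water, at 0.988 to 5.65 CPM summed in water, 696 to 1823 in progressing and 2328 to 4942 in regressing libraries. Of the 9 thymocyte markers 6 were higher in regressing and 2 in progressing than in water. Of the 8 thymic epithelium markers, 5 were lower in progressing than in water, 6 higher in regressing than in progressing and 3 higher in regressing than in water. Of the 6 precursor B cell markers, 4 were tested: 1 was lower in regressing than in water and 1 lower in regressing than in progressing.

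Of the 7 germinal centre and hypermutation genes, 1 was higher and 1 lower in regressing than in water, 2 were lower in progressing than in water, and 2 were higher and 1 lower in regressing than in progressing. The macrophage markers had 1 of 8 lower in progressing than in water and no other call. Of the 6 adipocyte markers, 3 were higher in regressing than in water and 1 higher in regressing than in progressing. Their sums were uneven within groups, at 140, 565 and 4802 CPM in regressing replicates 1, 2 and 3 and 119, 1265 and 240 in the progressing replicates. The lymph node stroma markers summed to 61.0, 456 and 565 CPM in water, 6.69 to 19.1 in progressing and 10.3 to 48.7 in regressing libraries, and 2 of the 5 tested were lower in each ATO group than in water. Water replicates 2 and 3, which had the uneven V reads, were the highest in this list. The part of these cell types in the V reads was not tested.

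The joining segments, which a rearranged V segment is fused to, had 7 of 9 tested, with 7 lower in progressing than in water and 6 higher in regressing than in progressing. The 3 lambda V segments had 2 lower and 3 higher in the same comparisons, and 0 of either list was called in regressing against water.

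In the C57 grafts all 191 members were found by symbol, and few had reads. The Igkv members had 119 and 116 reads after PBS and 15 and 7 after ATO, and the Ighv members had 46 and 78 after PBS and 1 and 1 after ATO. The groups did not overlap in either locus, and 2 against 2 libraries are too few for an exact test to reach 0.05. The 8 macrophage markers also summed to less after ATO, 174 and 122 CPM against 484 and 349 after PBS, with 3 of 8 lower (edgeR adjusted p under 0.05), and mitochondrial genes took 5.98% and 4.03% of reads against 0.52% and 1.02%. The part of these in the V reads of the grafts was not tested. Summed Igkv levels were 8.23 ± 0.620 CPM (SD, n = 2) after PBS and 0.783 ± 0.457 after ATO.

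No member passed the filter in the C57 table (edgeR, 0 of 191 tested), where 7.37% of 15468 tested genes were higher and 6.57% lower after ATO. Without the filter 89 members entered the edgeR fit, 15 had an unadjusted p under 0.05 and 4 were lower at an adjusted p under 0.05. Of the 27713 genes in that fit, 6080 had an unadjusted p under 0.05 and 11.8% were called in either direction. Both shares of members were below those of all genes. Igkv14-111 held 5 of 15 and 6 of 7 Igkv reads after ATO and 4 and 2 reads after PBS. Igkv19-93, Igkv4-91 and Ighv12-3 had at most 2, 1 and 0 reads in any graft.

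Constant genes gave a tested comparison in the grafts. Of the 12, 7 were tested and 5 were lower after ATO, and of 10 plasma cell markers 7 were tested and 1, Jchain, was lower (log2 fold change -3.85, SE 0.89, edgeR adjusted p = 0.0197). Igkc had 601 and 382 reads after PBS and 45 and 0 after ATO (log2 fold change -4.41, SE 0.88, edgeR adjusted p = 0.0127), and Igha was also lower (log2 fold change -3.59, edgeR adjusted p = 0.032). Ighm differed by less, by -0.50 on the log2 scale with an edgeR adjusted p = 0.219, at 186 ± 58.8 CPM after PBS and 131 ± 39.5 after ATO. Ighv reads per Ighm read were 0.0147 and 0.0363 after PBS and 0.000464 and 0.000637 after ATO. None of the 11 tested B cell markers passed the test (edgeR), with 5 positive and 6 negative fold changes.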

How the data were processed

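RNA-seq of 9 thymus tumour and 4 graft samples was used, and the U937 libraries were not. Raw counts of reads for each gene were deposited by the authors, in a table per system, beside FPKM values that served only to check totals. The library totals implied by FPKM in the W/W table were 0.106% (water replicate 1) to 2.33% (water replicate 2) above the summed counts, and the features behind that gap are not analysed here. Per the submitters' processing notes, FastQC 0.10.1, cutadapt 1.9.1 and HISAT2 2.0.1 were used; the counting program, strand use and handling of multiple matches are not given in the sources used here. Per the labels' protocols, RNA was isolated with TRIzol and libraries made with a SMARTer kit, and the same text describes a culture with dexamethasone that is not a description of tumour tissue.

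Gene positions in 98.9% of W/W genes equalled GENCODE vM21 (GRCm38), against 2.60% in the C57 table, so coordinates come from the W/W table only. Sequences were read from GENCODE vM21 transcripts, taking the transcript with the cysteine motif, an ATG start and the greatest length.

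Counts were tested with edgeR 4.0.16 (R 4.3.3): filterByExpr, TMM, quasi-likelihood test, Benjamini-Hochberg adjustment over all genes tested, threshold 0.05, all 3 W/W groups in 1 fit and the C57 grafts in another. Each standard error was the size of the log2 fold change divided by the root of F. Sums and effective numbers (unbiased inverse Simpson index) were compared with exact two-sided permutation tests. The method was tested on simulated data. Alternatives were DESeq2 1.42.0, limma-voom (limma 3.58.1), RLE factors, no filter, only the compared groups, a replicate block and leaving out each library. Named members are the 3 largest rises and falls per W/W comparison among those called and the 3 leading Igkv and Ighv segments of each library, and genes of the constant, B cell, plasma cell and octamer factor lists. The members and lists were chosen with earlier results of these data known. Replicate numbers did not pair the W/W samples (correlations of same-numbered samples from -0.124 to 0.136).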

Additional observations from a re-analysis of the deposited data

Results flagged for a closer look

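The outcome groups under ATO differed from each other in a direct test: 106 members were higher in regressing than in progressing libraries (edgeR, 145 tested) and 0 lower. Among all 18119 tested genes 6.45% were higher and 6.18% lower. The member count was 18 to 54 with a library left out, and the filter in part set the direction, as described above. Groups of 3 samples were too small to test for a sample far from the others, and none was run. Water replicate 2 stood apart in the values described above.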

How the results depend on the processing

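With every library in the fit, calls among members kept their direction in progressing against water and in regressing against progressing, while their number moved. In progressing against water (64) it was 102 with DESeq2, 138 without the filter, 27 with a replicate block, 8 with limma-voom, 10 with only the compared groups, and 8 to 100 when a library was left out. In regressing against progressing (106) it was 165 without the filter, 91 with a replicate block, and 18 to 54 with a library left out. In regressing against water (1) it was 10 with DESeq2, 34 without the filter, 10 with limma-voom, and 0 to 28 with a library left out. With a replicate block and with only the compared groups, 1 member was called there too, as a rise. The share of all tested genes called moved between these fits as well, as given with the counts above.

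In the grafts 4 members were called without the filter and 0 otherwise, also with a replicate block and with its numbers crossed, which was added after seeing that same-numbered grafts deviated in opposite directions. Over all genes the block gave 1350 calls, the crossed block 3298 and no block 2157. Water replicates share only a number with the ATO replicates.

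Sums kept their direction except for Igkv in regressing against water (-0.22 without regressing replicate 3), whose difference in log2 CPM was between -0.81 and 0.84 with a library left out. For Ighv in that comparison it was 0.12 to 1.01, and 2.28 without the most abundant segments. Effective numbers in progressing against water turned negative for Igkv with the Shannon index (-1.92) and for Ighv with the Shannon index (-5.82) and per kilobase (-0.70). Leaving out a library gave -2.70 to 13.1 for Igkv (-0.15 without water replicate 3) and -3.67 to 14.9 for Ighv. Igkv4-91 in regressing against water ranged from -6.84 to 1.37, the last without water replicate 2. The cause was not tested. Depth limits the progressing libraries (31 to 155 Igkv reads) and the grafts most.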

Other observations

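Lambda light chain reads in water replicate 2 had few V reads beside their constant reads: 210 reads on 3 lambda V segments and 10511 on the lambda constant genes. Water replicate 1 had 1781 and 3114, water replicate 3 had 192 and 232, and the regressing libraries had 4068 and 3593, 2352 and 1942, and 1356 and 993. Lambda constant genes made up 16.6% of light constant reads in water replicate 2, 13.1% and 4.2% in water replicates 1 and 3 and 3.6% to 12% in the regressing libraries.

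Fcer2a and Cr2, the low-affinity IgE receptor and the complement receptor of mature follicular and marginal zone B cells, had 3399 and 1676 reads in water replicate 1, 2 and 1 in water replicate 2, and 182 and 148 in water replicate 3. Ms4a1 had 11228 reads in water replicate 2, so B cell markers were not low there as a group.

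Each member has the library in which its level was highest: this was regressing replicate 3 for 71 members, water replicate 1 and regressing replicate 1 for 45 each, regressing replicate 2 for 17, water replicate 2 for 7 and water replicate 3 for 6.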
